A study of Mus musculus with 10 samples.

Results

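Expression of the interleukin-1 (IL-1) cytokines, their natural inhibitors and the inflammasome was followed in alveolar macrophages of mice with and without Bach2. The set was defined by gene symbol and holds 10 genes. Of these, 9 were found among the 26173 genes of the deposited table, namely Il1a, Il1b, Il18, Il1rn, Il1r2, Il18bp, Nlrp3, Pycard and Casp1, and Casp4 was not analysed here. All 9 passed the filter on low values, at least 1 FPKM (fragments scaled by transcript length and library depth) in at least 2 columns of the table, as did 11336 genes in all. Il1r2 passed only through the aberrant-marker library described below, so its difference there was bound to be large.

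IL-1 alpha and IL-1 beta act on 1 receptor and start inflammation through the adaptor MyD88 and NF-kB, and IL-18 acts on a receptor of its own. IL-1 beta and IL-18 are made as inactive precursors. They are cut by caspase-1, which is switched on when a sensor such as NLRP3 assembles with the adaptor ASC (encoded by Pycard) into an inflammasome. The IL-1 receptor antagonist (Il1rn), the decoy receptor IL-1R2 (Il1r2) and the IL-18 binding protein (Il18bp) hold these cytokines back. Transcript levels do not show how much precursor is cut or released.

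The study sequenced RNA from macrophages of C57BL/6 mice labelled as female and 16 weeks of age, and there were 5 groups. One line carried a floxed Bach2 with CD4cre, which deletes in T cells, and the macrophages of its knockouts may thus still carry the gene. Its knockout mice gave 2 fractions, macrophages of abnormal surface phenotype (the aberrant-marker library) and macrophages of control-like surface phenotype (the normal-marker library). Controls of that line gave the conditional control library. The other groups were germline Bach2 knockout mice and wild-type mice. How many mice gave each sample is not stated in the labels. Both fractions were picked by surface phenotype, and genes for surface proteins may differ between them through that choice alone.

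The 2 samples of a group differed by little more than sampling noise and were counted as 1 library with 2 sequencing runs. Pearson correlations of log2(FPKM + 1) between such samples were 0.996 to 0.999, against 0.845 to 0.929 between groups. The median squared difference of estimated fragments over their sum was 0.545 to 0.794 within groups and 69.7 to 102 between groups, where runs of 1 library are expected to give 0.455. Differences between groups thus have no replicate check, and p-values are not reported. Genes were called higher or lower at a fold of 4 or more on log2(FPKM + 1), both for the means and for each run against each run, if the higher library reached 20 FPKM. Depth, estimated from the smallest values, was about 7540000 to 9370000 fragments per run. Bach2 was under 0.06 FPKM in the mean of every library, so the level of the targeted gene could not check the genotype labels. The germline knockout and wild-type libraries held Y-linked transcripts (Eif2s3y at 39.9 and 60.8 FPKM) and almost no Xist, against the label female. The conditional libraries held Xist (9.08, 6.83 and 3.75 FPKM in the aberrant-marker, normal-marker and conditional control libraries) and at most 0.107 FPKM of Eif2s3y.

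Among the cytokines, Il18 had the highest level in the control libraries and the widest range. It was at 25.1 and 22.2 FPKM in the runs of the aberrant-marker library, 164 and 160 FPKM in the normal-marker library, and 401 and 417 FPKM in the conditional control. In the germline knockout it was at 1.57 and 0.855 FPKM, against 480 and 470 FPKM in the wild type. The knockout libraries were all below both controls, with no overlap of runs, and the germline knockout held almost none of this cytokine transcript. The main transcript rested there on about 9.01 and 4.50 fragments, against about 3679 and 3470 in the wild type. Counted from the highest of all genes, Il18 ranked 3340th in the aberrant-marker library, 579th in the normal-marker library and 220th in the conditional control, and 8416th in the germline knockout against 185th in the wild type.

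Il1a, the form of IL-1 that is active without cutting and is released by injured cells, had a different order. It was at 10.5 and 9.27 FPKM in the aberrant-marker library, 23.9 and 24.3 FPKM in the normal-marker library and 5.33 and 4.89 FPKM in the conditional control. In the germline knockout it was at 59.4 and 60.6 FPKM, against 15.6 and 14.5 FPKM in the wild type. The germline knockout was the highest library and the conditional control the lowest. The 2 controls were themselves apart, so that the aberrant-marker library lay above one of them and below the other.

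Il1b, the inducible cytokine that needs caspase-1, was nearly missing from the aberrant-marker library. Its runs were at 0.208 and 0.108 FPKM there, about 2.12 and 1.18 fragments, against 18.3 and 16.6 FPKM in the normal-marker library and 15.1 and 15.3 FPKM in the conditional control. The germline knockout held 31.4 and 30.6 FPKM, against 10.8 and 8.77 FPKM in the wild type. Il1b was thus lowest in one knockout library and highest in another, with no overlap of runs between any of these 5 libraries. In all libraries but the aberrant-marker one, Il1b and Il1a were within an order of magnitude of each other on the FPKM scale, which is per length. The ratio of Il1a to Il1b was 62.6 in the aberrant-marker library, 1.38 in the normal-marker library, 0.337 in the conditional control, 1.94 in the germline knockout and 1.54 in the wild type.

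**Figure D1:**
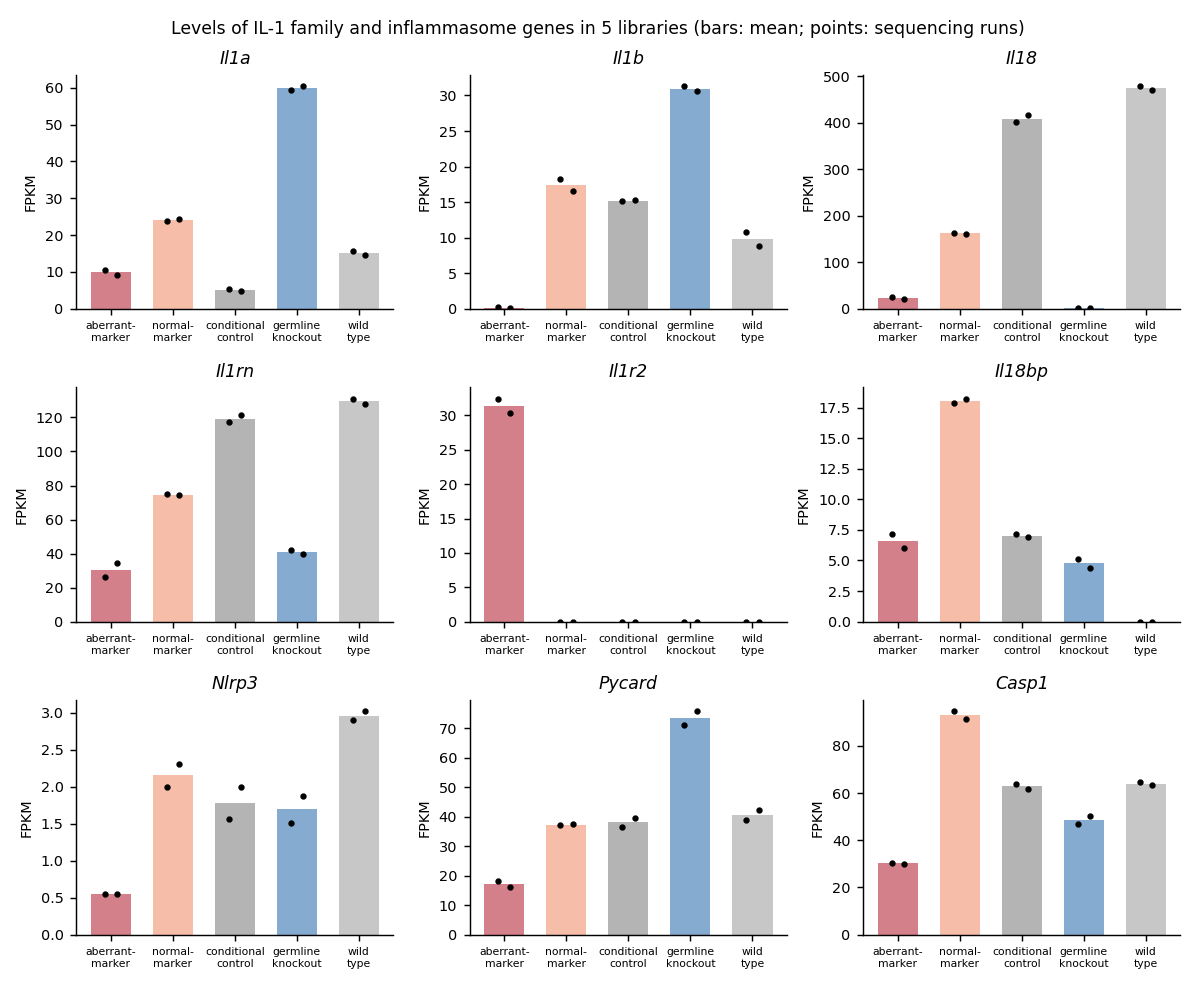
Levels in FPKM (vertical axes, each starting at 0) of the 9 genes in the 5 libraries, with bars for the mean of 2 sequencing runs and points for the runs. Il18 is high in both controls and at 1.21 FPKM in the germline knockout, Il1r2 is present in the aberrant-marker library and listed at 0 elsewhere, and Il1b is at 0.158 FPKM in the aberrant-marker library.

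The 250 bases before the start sites of the 3 cytokine genes are shown because these neighbouring or related genes had such different orders across the libraries. The sequences are from RefSeq on GRCm38.p6 and run 5′ to 3′ toward the start site. Capitals mark matches to TATAAA, the core of a TATA box, and to TGANTCA, the site of AP-1 proteins. The AP-1 core is also part of the longer element that Bach2 binds together with small Maf proteins. Il1a and Il1b lie on the minus strand of chromosome 2, at chr2:129309973-129310222 and chr2:129371140-129371389, and Il18 on the plus strand of chromosome 9, at chr9:50554450-50554699.
Il1a: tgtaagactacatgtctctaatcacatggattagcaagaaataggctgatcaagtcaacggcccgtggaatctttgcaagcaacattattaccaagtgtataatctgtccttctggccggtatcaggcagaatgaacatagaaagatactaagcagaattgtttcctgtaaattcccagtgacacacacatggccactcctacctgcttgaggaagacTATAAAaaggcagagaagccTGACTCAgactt
Il1b: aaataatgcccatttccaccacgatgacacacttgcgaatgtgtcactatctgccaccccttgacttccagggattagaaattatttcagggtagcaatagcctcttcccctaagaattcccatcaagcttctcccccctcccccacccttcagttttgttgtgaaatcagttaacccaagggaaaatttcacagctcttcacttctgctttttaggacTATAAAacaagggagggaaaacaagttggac
Il18: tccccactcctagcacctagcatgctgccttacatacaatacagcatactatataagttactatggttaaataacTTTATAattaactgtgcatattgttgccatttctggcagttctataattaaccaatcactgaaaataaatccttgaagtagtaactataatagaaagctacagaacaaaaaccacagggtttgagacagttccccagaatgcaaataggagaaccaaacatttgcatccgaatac
Il1a and Il1b each have TATAAA about 30 bases before the start (first base at 32 and 31 bases). That of Il18 is on the opposite strand and far from the start, with its first base at 175 bases. Il1a alone of the 3 has the AP-1 core, as TGACTCA with its first base 12 bases before the start. Both strands were searched in 32851 mouse promoters of this length. TATAAA was found in 12.4% of them and TGANTCA in 6.75%. Such a match is a string of letters, not a measured binding site.

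Among the inhibitors, Il1rn was the most abundant in every library except the aberrant-marker one, where its level was close to that of Il1r2. Il1rn runs were at 26.2 and 34.5 FPKM in the aberrant-marker library, 75.3 and 74.2 FPKM in the normal-marker library and 117 and 121 FPKM in the conditional control. They were at 42.0 and 39.9 FPKM in the germline knockout, against 131 and 128 FPKM in the wild type. All 3 knockout libraries lay below both controls, without overlap of runs, and the controls were close to each other. Il1r2 was at 32.4 and 30.4 FPKM in the aberrant-marker library, about 347 and 346 fragments, and was listed at 0 in the 8 runs of the other 4 libraries. Il18bp was at 7.16 and 6.04 FPKM in the aberrant-marker library, 17.9 and 18.2 FPKM in the normal-marker library and 7.16 and 6.91 FPKM in the conditional control. It was at 5.16 and 4.36 FPKM in the germline knockout and listed at 0 in both runs of the wild type. At this level a listing at 0 was common between the controls. Of 1580 genes at 5 to 10 FPKM in the conditional control, 17.8% were under 0.1 FPKM in the wild type, against 1.35% of 1850 genes at 20 to 50 FPKM and 0 of 903 genes at 100 to 1000 FPKM.

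The promoters of the inhibitors with the clearest patterns, Il1rn and Il1r2, are shown for comparison with those of the cytokines, with the same marking. Il1rn has more than 1 start site, and the outermost, on the plus strand at chr2:24336610-24336859, is given. Il1r2 lies on the plus strand at chr1:40085843-40086092.
Il1rn: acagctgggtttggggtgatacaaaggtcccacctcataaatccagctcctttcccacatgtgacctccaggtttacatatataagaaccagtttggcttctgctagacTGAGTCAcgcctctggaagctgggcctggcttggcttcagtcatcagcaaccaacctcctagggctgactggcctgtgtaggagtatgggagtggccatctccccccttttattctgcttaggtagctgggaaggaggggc
Il1r2: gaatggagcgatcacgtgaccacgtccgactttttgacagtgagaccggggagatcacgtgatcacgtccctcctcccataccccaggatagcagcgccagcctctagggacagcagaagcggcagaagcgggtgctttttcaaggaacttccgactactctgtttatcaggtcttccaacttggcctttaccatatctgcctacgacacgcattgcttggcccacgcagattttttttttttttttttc
The outermost Il1rn promoter holds the AP-1 core as TGAGTCA with its first base 141 bases before the start. The other 2 Il1rn windows, at the inner start sites that most of the Il1rn level is assigned to below, hold neither marked string. The Il1r2 window holds neither of the marked strings. Over all 14 promoter windows of the 10 genes, 2 held TGANTCA and 3 held TATAAA. No match in these windows says nothing of sites elsewhere.

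The 2 control libraries differed little in Il1rn as a whole, while the split over its 4 listed transcripts was less certain. The transcript that starts at an inner promoter and has 178 codons in GENCODE M21, the length of the secreted form, made up 86.9% of the Il1rn level in the aberrant-marker library, 68.4% in the normal-marker library and 61.2% in the conditional control. Its share was 54.6% in the germline knockout and 73.7% in the wild type. The transcript from the outermost promoter, with 159 codons, the length of an intracellular form, made up 0.546%, 6.92% and 7.00% in the aberrant-marker, normal-marker and conditional control libraries, and 11.7% in the germline knockout against 4.38% in the wild type. These shares also differed between runs of 1 library. The share of the 178-codon transcript was 70.0% and 52.8% in the runs of the conditional control, and reads shared by transcripts were divided by a model. The total per gene was steadier, and only totals are compared.

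The inflammasome genes varied less than the cytokines, with highest over lowest mean of 3.07 for Casp1, 4.25 for Pycard and 5.40 for Nlrp3, against 11.7 for Il1a, 196 for Il1b and 392 for Il18. Casp1, the protease that cuts the IL-1 beta and IL-18 precursors, was at 30.5 and 30.0 FPKM in the aberrant-marker library, 94.6 and 91.2 FPKM in the normal-marker library and 63.9 and 61.8 FPKM in the conditional control. It was at 46.9 and 50.1 FPKM in the germline knockout, against 64.5 and 63.5 FPKM in the wild type. Pycard was at 18.3 and 16.2 FPKM in the aberrant-marker library, 37.0 and 37.6 FPKM in the normal-marker library and 36.6 and 39.6 FPKM in the conditional control. It was at 71.1 and 75.7 FPKM in the germline knockout, against 39.0 and 42.2 FPKM in the wild type. Nlrp3, the sensor, was low throughout, with means of 0.549 FPKM in the aberrant-marker library, 2.16 FPKM in the normal-marker library, 1.78 FPKM in the conditional control, 1.70 FPKM in the germline knockout and 2.97 FPKM in the wild type. For Casp1 and Pycard, the normal-marker, conditional control and wild-type libraries were within 1.48-fold of each other, the aberrant-marker library was below them, and the germline knockout was above them in Pycard and below them in Casp1.

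In aberrant-marker macrophages against the conditional control, Il1r2 rose and Il18 fell, and no other member was called. The log2 difference was 5.02 for Il1r2, on a scale that understates the change because the control was listed at 0. It was -4.06 for Il18 (range over pairings of runs -4.17 to -3.94), which is 17.3-fold lower. These are 1 of 9 members higher and 1 of 9 lower, where 4.09% of all genes tested were called higher and 3.76% lower. Il1r2 passed the filter only through the aberrant-marker library and had to be higher there, so the count of higher members is a description only. Il1b had a difference of -3.81 but stayed under the floor of 20 FPKM in both libraries, and it was called lower with a floor of 5 FPKM or with all libraries scaled to a common sum. Il1rn (-1.94), Pycard (-1.10) and Casp1 (-1.03) differed by less than 4-fold, as did Nlrp3 (-0.85), Il18bp (-0.08) and Il1a (0.83). The median over the 9 members was -1.03 and that over all genes 0.00. In bulk RNA, fewer cells of a type and less RNA per cell cannot be told apart.

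Markers of other cells moved with these differences in the aberrant-marker library. Of 12 dendritic cell markers, 10 were at 1 FPKM or more there, against 5 of 12 in the conditional control. They summed to 3546 and 3575 FPKM in the aberrant-marker runs, against 31.1 and 33.4 FPKM. Ccr7 (1564 against 0.0937 FPKM) and Cd83 (1276 against 18.5 FPKM) made up most of that sum. Xcr1 (3.6e-13 against 2.09 FPKM) and Clec9a (0.620 against 1.90 FPKM) went the other way. All 9 measured T cell markers were at 1 FPKM or more (summed 178 and 172 FPKM), against 1 of 9 and 2.55 and 2.84 FPKM. Alveolar macrophage markers summed to 8969 and 8841 FPKM, against 15867 and 15650 FPKM, with Marco (0.258 against 224 FPKM), Siglec5 (0.134 against 197 FPKM) and Cidec (0.266 against 299 FPKM) nearly gone. Of the 11 measured, 8 were at 1 FPKM or more, against 11. Chil3 made up most of these sums and was largely kept (8291 against 9166 FPKM), as was Fabp4 (83.7 against 104 FPKM). Itgax was at 124 against 253 FPKM. Interstitial macrophage markers summed to 1002 and 1001 FPKM, against 202 and 198 FPKM, with 7 of 10 at 1 FPKM or more, against 5 of 10. Their complement genes C1qa (193 FPKM, listed at 0 in the conditional control), C1qb (375 against 1.01 FPKM) and C1qc (284 against 3.89 FPKM) were high, whereas Folr2 and Lyve1 were listed at 0 in both. Mrc1, which made up most of the conditional control sum, went the other way (36.3 against 167 FPKM). Monocyte markers summed to 23.7 and 22.1 FPKM, against 138 and 136 FPKM, with 2 of 10 at 1 FPKM or more, against 4 of 10. Fcgr4 (6.99 against 85.8 FPKM) and Treml4 (listed at 0 against 41.5 FPKM) made up most of this fall. Ccr2 went the other way (15.9 against 6.47 FPKM). The part of these cells in the values of Il1r2, Il18 and Il1b was not tested. Neutrophil markers, of interest because neutrophils carry Il1r2 and Il1b, summed to 11.2 and 20.7 FPKM, against 64.3 and 69.6 FPKM in the conditional control. Mmp8 (1.54 against 43.7 FPKM) and Csf3r (3.61 against 10.8 FPKM) were lower. S100a8 was at 10.5 against 12.3 FPKM and Cxcr2 at 0.313 against 0.158 FPKM. S100a9, Ly6g, Retnlg, Camp, Ngp and Mmp9 were listed at 0 in both. The part of neutrophils in the values of Il1r2 and Il1b was not tested either.

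Aberrant-marker and normal-marker macrophages of the same knockout line differed in the same 2 members. Il1r2 was called higher (5.02) and Il18 lower (-2.73, range -2.83 to -2.63), 6.86-fold below the normal-marker level. Among all genes tested, 4.02% were called higher and 3.26% lower. Il1r2 had to be higher in this comparison too, because of the filter. Il1b was at -3.99, again under the floor. Each of the other 6 members was also below its normal-marker level, with log2 differences of -1.03 (Nlrp3) to -1.59 (Casp1), so that 8 of 9 members had differences of -1 or less, against 23.1% of all genes. The median of the members was -1.27, against 0.02 over all genes. Most of these differences are under the size needed for a call. This comparison shares the aberrant-marker library with the one before and is not independent of it.

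Normal-marker macrophages against the conditional control gave 0 called members of 9, where 0.935% of all genes were called higher and 0.838% lower. Il1a came closest, with a log2 difference of 2.04. It missed the call because some pairings of runs fell below 4-fold (1.98 to 2.10), and it is 4.72-fold in FPKM. The wild type, too, was above the conditional control in Il1a, by 1.39 on the log2 scale, and the normal-marker library was above the wild type by 0.65. Il18 had a difference of -1.33 and Il18bp of 1.25. Il1rn was at -0.67, Casp1 at 0.56, Il1b at 0.19, Nlrp3 at 0.18 and Pycard at -0.03. The cytokine and its binding protein thus lay on opposite sides of the control, and their ratio is given below.

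In germline knockout macrophages against the wild type, Il18 fell and no other member was called. Its log2 difference was -7.75 (range -8.02 to -7.52), larger in size than that of 99.9% of the genes tested. Among all genes, 2.73% were called higher and 3.36% lower. Il1a (1.93) and Il1b (1.57) were above the wild type in all pairings of runs, by 3.99-fold and 3.17-fold in FPKM, and Il1rn (-1.64) was below it, all under 4-fold on the log2 scale. Il18bp was at 4.76 FPKM and listed at 0 in the wild type. Pycard was at 0.84, Casp1 at -0.39 and Nlrp3 at -0.56, and Il1r2 was listed at 0 in both. Against the conditional control, a comparison added after seeing the data, Il18 had a difference of -7.53 and Il1a of 3.32, and both passed the rule, so the call of Il1a depended on the control. Of 11336 genes tested, 236 were called higher and 371 lower against the conditional control. Il1b was at 0.98 and Il1rn at -1.52 against that library. Il18bp changed side, at -0.48 (4.76 against 7.04 FPKM), so its direction depended on the control.

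In the germline knockout library T cell markers were all far under 1 FPKM, whereas the sums of dendritic cell, interstitial macrophage and monocyte markers were on the same side of the control as in the aberrant-marker library. Interstitial macrophage markers summed to 466 and 468 FPKM, against 216 and 215 FPKM in the wild type, with 7 of 10 at 1 FPKM or more, against 2 of 10. Of these, C1qa (33.6 FPKM), C1qb (154 FPKM) and C1qc (64.2 FPKM) were listed at 0 in the wild type. Mrc1, which made up nearly all of the wild-type sum, went the other way (114 against 211 FPKM). Monocyte markers summed to 36.0 and 36.1 FPKM, against 110 and 112 FPKM, with 2 of 10 at 1 FPKM or more in each. Fcgr4 (26.9 against 82.0 FPKM) and Treml4 (listed at 0 against 29.1 FPKM) were lower. Ccr2 went the other way (9.15 FPKM, listed at 0 in the wild type). Dendritic cell markers summed to 174 and 169 FPKM, against 72.0 and 64.2 FPKM in the wild type. Of these, 5 of 12 were at 1 FPKM or more, against 3 of 12. Ccr7 (71.6 against 0.0333 FPKM) made up most of the difference. Flt3 was at 0.667 FPKM (listed at 0 in the wild type) and Cd83 was nearly level (60.4 against 53.1 FPKM). Clec9a (listed at 0 against 2.14 FPKM) and Zbtb46 (0.0113 against 0.171 FPKM) went the other way. Cd209a, Kmo and Dpp4 were listed at 0 in both. Neutrophil markers summed to 56.4 and 46.2 FPKM, against 41.8 and 43.0 FPKM, but single markers moved in opposite directions. S100a8 made up most of the germline knockout sum and was higher (43.7 against 4.83 FPKM). Cxcr2 was higher too, with runs at 5.72 and 6.88 FPKM, against 0.781 and 0.619 FPKM. S100a9 was at 0.410 FPKM and listed at 0 in the wild type. Mmp8 (0.782 against 27.05 FPKM) and Csf3r (0.109 against 9.797 FPKM) were lower. The part of neutrophils in the level of Il1b was not tested here. Of the 11 measured alveolar macrophage markers, 8 were at 1 FPKM or more in the germline knockout and 11 in the wild type, with summed levels of 47550 and 47775 FPKM, against 17760 and 17973 FPKM. Chil3 made up nearly all of that sum (46574 against 9278 FPKM), whereas Cidec was listed at 0 (405 FPKM in the wild type), Siglec5 was at 0.0247 FPKM (151 FPKM) and Ear1 at 0.964 FPKM (1055 FPKM). The part of these changes in the level of Il18 was not tested.

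**Figure D2:**
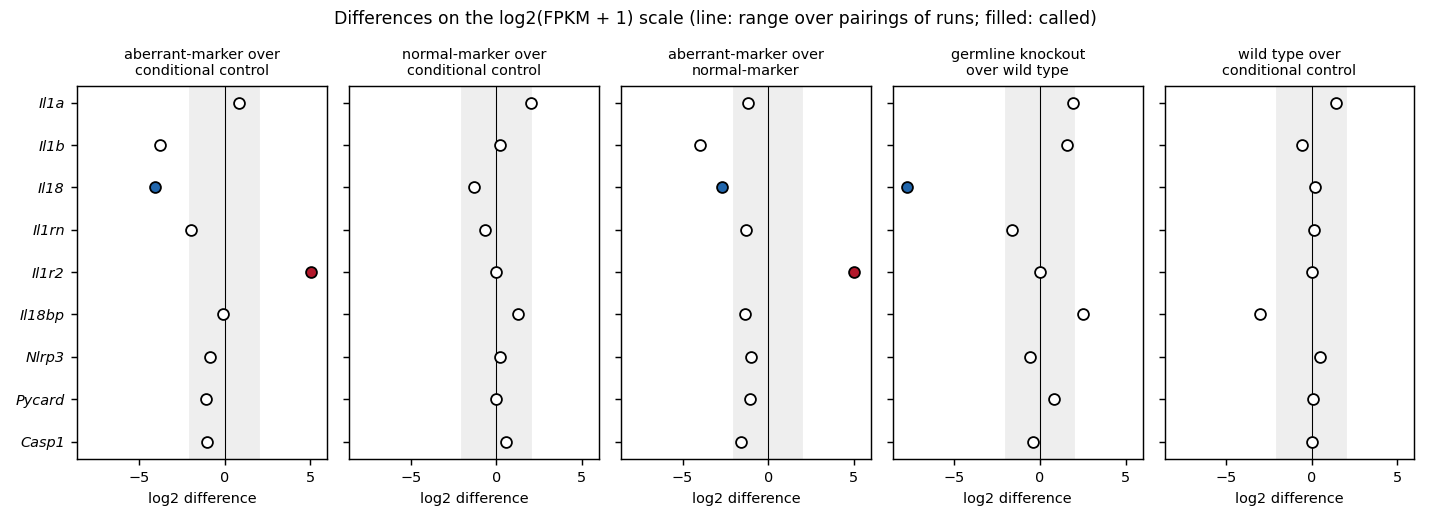
Differences on the log2(FPKM + 1) scale (horizontal axes) of the 9 genes in 5 comparisons, the library named first minus the second, with a line for the range over pairings of runs (mostly hidden behind the points), filled points for called genes and grey shading for less than 4-fold. Il18 is called lower in 3 panels (-4.06, -2.73 and -7.75), Il1r2 is called higher in 2 (5.02 in both), and no gene is called in the panel of the 2 controls.

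**Figure D3:**
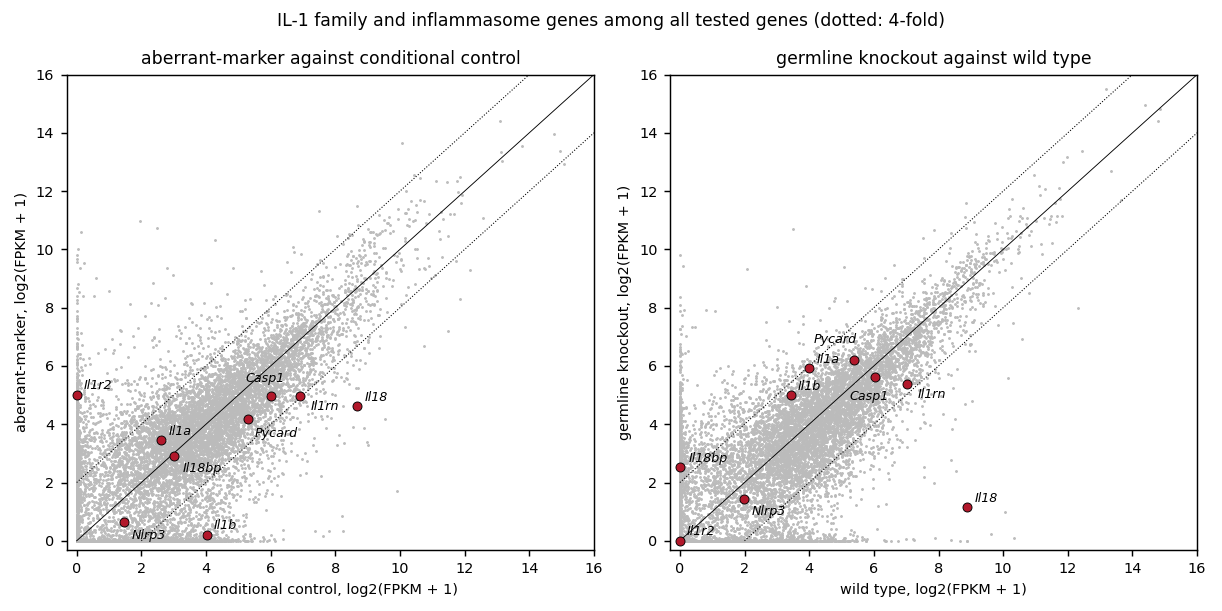
Levels of all tested genes (grey) and of the 9 genes (red) as log2(FPKM + 1) on both axes, for aberrant-marker against conditional control and germline knockout against wild type, with the line of equal level and dotted lines at 4-fold. Il18 lies below the lower dotted line in both panels, at 23.6 against 409 FPKM and 1.21 against 475 FPKM.

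The wild type, set against the conditional control, differs from it in mouse line and in the Y-linked transcripts given above, and 0 of 9 members were called between them, where 0.935% of all genes were called higher and 1.17% lower. Il18 (0.22), Il1rn (0.12), Pycard (0.09) and Casp1 (0.03) had log2 differences near 0. Il1a (1.39) and Il18bp (-3.01, listed at 0 in the wild type) were far apart, with Il1b at -0.59 and Nlrp3 at 0.51. The knockout differences of Il1a and Il18bp are therefore to be read against a control spread of similar size, and those of Il18 and Il1rn against a small one.

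The balance of antagonist and cytokine transcripts was lower in the knockout libraries than in the controls. The ratio of Il1rn to the sum of Il1a and Il1b was 2.44 and 3.68 in the runs of the aberrant-marker library, 1.78 and 1.81 in the normal-marker library and 5.73 and 6.03 in the conditional control. It was 0.462 and 0.438 in the germline knockout, against 4.97 and 5.50 in the wild type. The germline knockout was the only one of the 5 libraries with less antagonist than IL-1 transcript. The ratio of Il18 to Il18bp was 3.51 and 3.67 in the aberrant-marker library, 9.18 and 8.80 in the normal-marker library, 56.0 and 60.3 in the conditional control and 0.305 and 0.196 in the germline knockout. It has no value in the wild type, where Il18bp was listed at 0. With Il1b alone as the denominator, the ratio of Il1rn was 192 in the aberrant-marker library, 4.28 in the normal-marker library and 7.85 in the conditional control, and 1.32 in the germline knockout against 13.3 in the wild type. The order of the aberrant-marker library therefore depends on whether Il1a is counted.

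**Figure D4:**
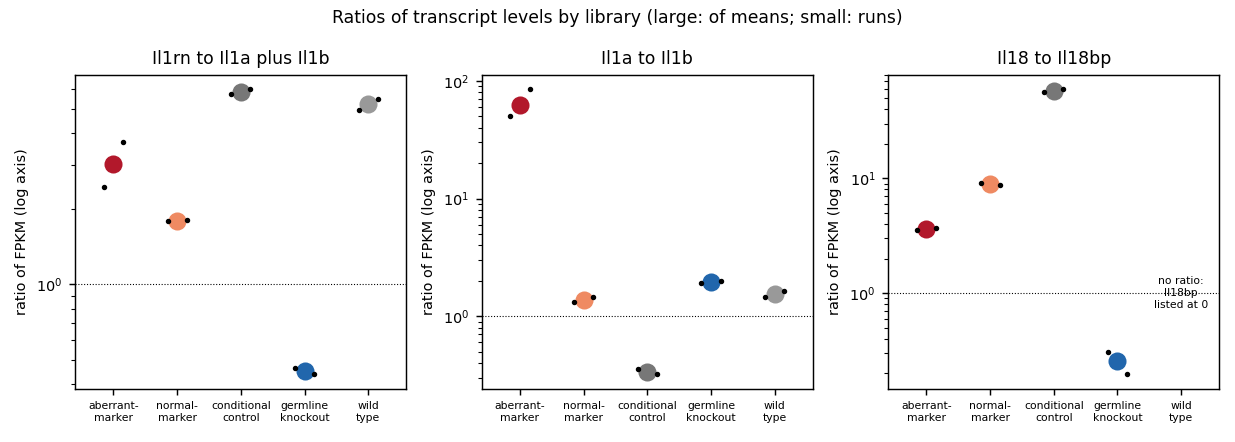
Ratios of FPKM on log axes by library, with large points for the ratio of means and small points for the runs. The ratio of Il1rn to Il1a plus Il1b is 0.450 in the germline knockout and 5.22 in the wild type, and the ratio of Il18 to Il18bp is 0.255 in the germline knockout and 58.1 in the conditional control.

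The receptors and adaptors that read IL-1 family cytokines held few calls. Of 16 such genes tested, 1 was lower and 0 higher in the aberrant-marker library against the conditional control, with a list median of 0.12 beside 0.00 over all genes. Called shares over all genes were 4.09% higher and 3.76% lower. The lower gene was Il1rap, the accessory chain of the IL-1 receptor (0.228 against 21.4 FPKM), and it was also lower in the normal-marker library (0.956 against 21.4 FPKM). In the wild type Il1rap was at 6.05 FPKM, under the floor and close to the 7.76 FPKM of the germline knockout, so these calls rest on the conditional control. The direction did not, with log2 differences of -2.52 (aberrant-marker) and -1.85 (normal-marker) against the wild type. Il1r1, the signalling receptor itself, was at 0.209 FPKM in the aberrant-marker library, listed at 0 in the normal-marker library and at 0.0221 FPKM in the conditional control, and at 7.08 FPKM in the germline knockout against 1.21 FPKM in the wild type. Il18r1, a chain of the IL-18 receptor, was at 6.37 FPKM in the aberrant-marker library and far under 1 fragment elsewhere. Il18r1 and Il1rl1 (3.01 FPKM) passed the filter only through the aberrant-marker library. They had to be higher there and are part of the list median. Myd88, the shared adaptor, was at 25.7, 103 and 75.8 FPKM in the aberrant-marker, normal-marker and conditional control libraries, and at 63.0 FPKM in the germline knockout against 51.6 FPKM in the wild type. In the germline comparison 0 of the 16 were called, with a list median of 0.30 beside 0.00 over all genes. Called shares over all genes were 2.73% higher and 3.36% lower there. Of the other cytokines of the family, Il1f9 (IL-36 gamma) passed the filter, at 0.628, 3.68 and 4.39 FPKM in the aberrant-marker, normal-marker and conditional control libraries and 0.365 FPKM in the germline knockout against 3.88 FPKM in the wild type, and Il33 was listed at 0 in all 5.

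Among 16 tested sensors and regulators of inflammasomes, 1 was higher and 2 were lower in the aberrant-marker library against the conditional control. The list median was -0.34 beside 0.00 over all genes, of which 4.09% were called higher and 3.76% lower. Pstpip1, an adaptor that binds pyrin, was higher (32.1 against 0.0933 FPKM). P2rx7, the ATP-gated channel that triggers NLRP3, was lower (0.0729 against 20.4 FPKM, and 5.43 FPKM in the wild type), as was Naip2, a sensor of bacterial secretion systems (3.61 against 33.3 FPKM). In the normal-marker library against the conditional control 0 of 16 were called, where 0.935% of all genes were called higher and 0.838% lower. In the germline knockout, Txnip was lower (103 against 501 FPKM) and 0 were higher, and Txnip was not called against the conditional control (-1.93). Against the wild type, 2.73% of all genes were called higher in the germline knockout and 3.36% lower. Against the normal-marker library, the aberrant-marker library had Pstpip1 higher and P2rx7 and Card9 lower, with Card9 listed at 0 against 41.1 FPKM. In that comparison 4.02% of all genes were called higher and 3.26% lower. Among genes of pyroptosis, Serpinb1a, an inhibitor of neutrophil proteases, was lower in the aberrant-marker library against the conditional control (44.9 against 241 FPKM). In the germline knockout Serpinb1a was lower as well (52.4 against 310 FPKM) and Ninj1, which ruptures the membrane of dying cells, higher (153 FPKM, listed at 0 in the wild type). Ninj1 was also higher and Serpinb1a lower in the aberrant-marker library against the normal-marker library (114 against 21.4 FPKM and 44.9 against 213 FPKM). Ninj1 was at 32.1 FPKM in the conditional control and was itself called between the 2 controls. Gsdmd, which forms the pyroptotic pore, was not called in any comparison, at 12.2, 45.0 and 32.0 FPKM in the aberrant-marker, normal-marker and conditional control libraries and 18.6 FPKM in the germline knockout against 23.5 FPKM in the wild type.

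Subunits and feedback inhibitors of NF-kB, the pathway downstream of IL-1 receptors and many others, were higher in the aberrant-marker library. Of 11 tested, 6 were called higher and 0 lower against the conditional control, with a list median of 2.77 beside 0.00 over all genes. Called shares over all genes were 4.09% higher and 3.76% lower. Relb was at 288 against 10.7 FPKM, Nfkb2 at 207 against 19.1 FPKM, Tnfaip3 at 46.7 against 5.21 FPKM and Nfkb1 at 125 against 17.1 FPKM. Rel and Nfkbia were the others. Against the normal-marker library 6 were also higher, with Bcl3 in place of Tnfaip3, and the list median was 3.06 beside 0.02 over all genes. In that comparison 4.02% of all genes were called higher and 3.26% lower. Both list medians include Nfkbiz, which passed the filter only through the aberrant-marker library (8.22 FPKM) and had to be higher there. None was called in the normal-marker library against the conditional control (list median -0.49) or in the germline knockout against the wild type (0.41). The median over all genes was 0.00 in each. Against the conditional control, a comparison added after seeing the data, Tnfaip3 was called higher in the germline knockout (32.5 against 5.21 FPKM). The list median was 0.42 there, beside -0.06 over all genes. Of 11336 genes tested, 236 were called higher and 371 lower. Against the wild type, the normal-marker library had Bcl3 lower (0.0405 against 37.7 FPKM), where 155 genes were called higher and 164 lower. These counts thus depend on the control. The rise of NF-kB genes in the aberrant-marker library moved with the dendritic and T cell markers given above, and their part in it was not tested.

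Of 12 tested genes that IL-1 signalling can induce, 5 were higher and 0 lower in the germline knockout against the wild type, with a list median of 3.24 beside 0.00 over all genes. The chemokine genes Ccl2 (243 against 0.0824 FPKM), Ccl3 (162 against 0.389 FPKM) and Cxcl2 (28.9 against 1.37 FPKM) were among them, and Saa3, an acute phase gene (36.5 FPKM), and Ccl4 (23.0 FPKM) were listed at 0 in the wild type. In this comparison 2.73% of all genes were called higher and 3.36% lower. Ccl3 was at 23.0 FPKM in the conditional control and was called between the 2 controls, and Cxcl2 was at 9.15 FPKM and Ccl4 at 6.49 FPKM there, and against that library, a comparison added after seeing the data, 3 of the 5 were called (Ccl2, Ccl3 and Saa3). Cxcl2 (1.56) and Ccl4 (1.68) were not, and the list median was 1.62 beside -0.06 over all genes. Of 11336 genes tested, 236 were called higher and 371 lower in the germline knockout against the conditional control. In the aberrant-marker library Ccl2 alone was called against the conditional control (75.5 against 0.0755 FPKM), with a list median of 1.71, whereas 5 of 12 were called higher against the wild type, so this count too depends on the control. Called shares over all genes were 4.09% higher and 3.76% lower against the conditional control. Against the wild type, 539 of 11336 genes tested were called higher and 443 lower. Against the conditional control 0 of 12 were called in the normal-marker library, where 0.935% of all genes were called higher and 0.838% lower. Against the normal-marker library, the aberrant-marker library had 3 of 12 higher (Ccl4, Ccl2 and Cxcl3) and 0 lower, with a list median of 2.07 beside 0.02 over all genes. Called shares over all genes were 4.02% higher and 3.26% lower there. Il6 was at 12.6 FPKM in the germline knockout against 0.216 FPKM in the wild type, under the floor, and Ptgs2 and Csf3 were listed at 0 in all libraries. Il6, Lcn2 and Saa3 reached 1 FPKM only in the germline knockout, and Csf2 and Cxcl1 only in the aberrant-marker library, so the list medians include genes that had to be higher in a knockout library.

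**Figure D5:**
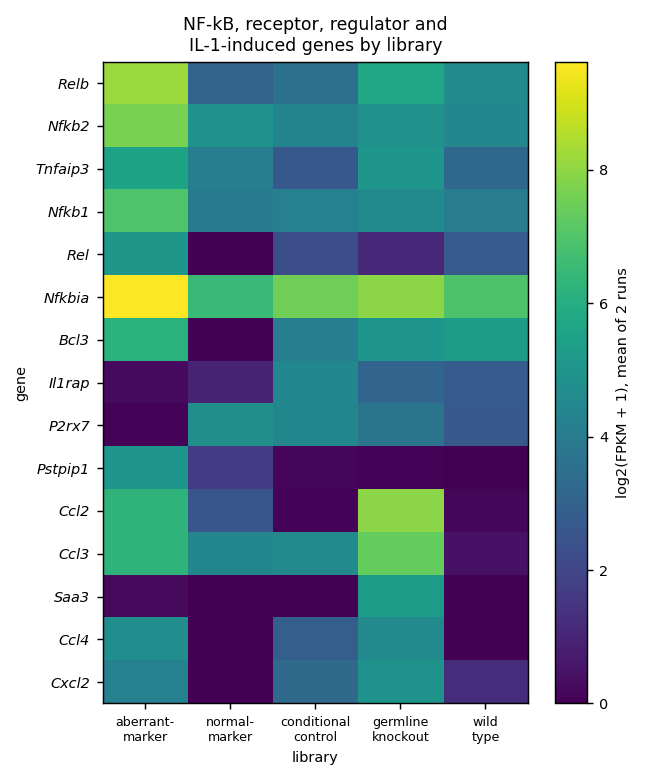
Mean log2(FPKM + 1) of the 2 runs (colour) for called genes of the NF-kB, receptor, regulator and IL-1-induced lists (rows) in the 5 libraries (columns); the rows were chosen after their values were seen. NF-kB genes are brightest in the aberrant-marker library, for example Relb at 288 FPKM, and Ccl2 is brightest in the germline knockout at 243 FPKM.

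For the 7 members that reached 20 FPKM in a library, the genes with the most similar pattern were sought among 5334 others, by the root mean square difference of centred log2(FPKM + 1) over the 5 libraries. The 2 nearest to Il18 were Fpr2, a formyl peptide receptor, and Igflr1, both at 0.38, beside a spread of 2.92 of Il18 itself. Fpr2 was at 9.36, 65.4 and 97.8 FPKM in the aberrant-marker, normal-marker and conditional control libraries, and at 0.0472 FPKM in the germline knockout against 127 FPKM in the wild type. Nearest to Il1rn were Ndufa4 (0.06) and Zfp36l2 (0.09), to Il1a Lhfpl2 (0.24) and Ch25h (0.29), and to Il1b Lrrc14 (0.19) and Mapk9 (0.23). Phlda2 (0.01) and Adam19 (0.03) were nearest to Il1r2, being present in the aberrant-marker library and at or near 0 elsewhere. Clec4a3 and Kxd1 were nearest to Casp1, and Fuca2 and Slc39a10 to Pycard. With 5 points each, such likeness is a description of these libraries.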

How the data were processed

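RNA of 10 samples was measured, 2 for each of 5 groups. Per the labels' protocols, cDNA was made from 100 pg of RNA with 18 cycles of PCR. The authors deposited FPKM values for 45913 RefSeq transcripts. The submitters' processing notes list eXpress 1.5.1 and Bowtie 1.1.2 without saying what each did, and no genome build or filter is given in the sources used here. Transcript FPKM with the same Entrez id were added up. A pseudocount of 1 FPKM was added before log2. Because the 2 columns of a group behaved as runs of 1 library, no test between groups was run and the rule of size was used. It was tried on simulated data, and the outcome is not given here. How often the rule calls genes between like libraries could not be measured, since no group has a replicate library. Depth was read as the commonest product of low value and GENCODE M21 length (32449 transcripts matched, not effective lengths) within a fixed window, so it is approximate and no counting interval is given. Column sums were 625660 to 668491 FPKM. All 10 promoter matches were by symbol. Genes named were all members, up to 4 called genes per list, defining markers and the 2 nearest genes per member. Other genes were named after their values were seen. For 1 gene of the pyroptosis list, the result is not reported here. Members and lists were chosen with earlier results of these data known. The computations used Python 3.11.15, numpy 2.4.6, pandas 2.3.3 and matplotlib 3.10.9.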

Additional observations from a re-analysis of the deposited data

Results flagged for a closer look

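In the germline and the conditional line, 3 members had differences of opposite direction in every pairing of runs, and none of these contrasts between lines was tested. The share of all genes that meet this rule was not computed, so the count is a description only. No member met it in both conditional fractions. Il1b was below the conditional control in the aberrant-marker library (-3.81) and above the wild type in the germline knockout (1.57), and the germline difference minus the other was 5.37 on the log2(FPKM + 1) scale. Pycard was below the conditional control in the aberrant-marker library (-1.10) and above the wild type in the germline knockout (0.84), with 1.94 for the same subtraction. Casp1 was above the conditional control in the normal-marker library (0.56) and below the wild type in the germline knockout (-0.39), with -0.95 for the same subtraction. In the other fraction, Il1b (0.19, normal-marker) and Casp1 (-1.03, aberrant-marker) went the same way as in the germline knockout. Pycard was at -0.03 in the normal-marker library.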

How the results depend on the processing

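The calls of Il18 in the aberrant-marker and germline knockout libraries held under every setting tried: other pseudocount, floor, fold, filter, scaling, transcript choice, run or control. All 25 member differences of at least 1 on the log2 scale kept their sign under every setting other than the change of control, with moves of up to 0.57 under the scalings, 0.50 with the highest transcript per gene and 0.26 when a run was left out. The pseudocount of 0.1 FPKM moved low genes by up to 3.28, with Il1r2 at 8.30 in place of 5.02, Il1b at -5.89 in place of -3.81, and Il18bp at 5.60 in place of 2.53 in the germline comparison and -6.16 in place of -3.01 between the controls. Other calls depended on settings. With a 2-fold threshold, 2 members were called in the normal-marker library against the conditional control in place of 0, 5 in the aberrant-marker against the normal-marker library in place of 2, and 4 in the germline knockout against the wild type in place of 1. A pseudocount of 0.1 FPKM, a common sum of FPKM and median ratio scaling each called 1 member (Il1a) in the normal-marker library against the conditional control. With a floor of 5 FPKM, 1 member (Il18bp) was called between the controls, and Il1b was called lower in the aberrant-marker library against both other conditional libraries (3 members in place of 2), as it was with a common sum. With the conditional control as its reference, a choice made after seeing the data, the germline knockout had 2 called members (Il18 and Il1a). Over all 11336 genes tested, 236 were called higher and 371 lower with that reference. Leaving out 1 run gave 1 to 2 members in the aberrant-marker library against the conditional control, 1 to 2 against the normal-marker library, 0 to 1 in the normal-marker library against the conditional control, 1 to 1 in the germline comparison and 0 to 0 between the controls. When an aberrant-marker run was left out, Il1r2 could not pass the filter of 2 columns, since no other library holds it. Without aberrant-marker run 2, Il1rn was called lower, and without conditional control run 1, Il1a was called higher in the normal-marker library. Over all genes, the aberrant-marker calls against the conditional control were 464 higher and 426 lower, 975 and 1035 at 2-fold, and 1097 and 1083 at a floor of 5 FPKM. In the germline comparison they were 310 and 381, 695 and 1018 at 2-fold, 914 and 1012 at 5 FPKM, and 421 and 627 with a common sum. The normal-marker comparison with the conditional control gave 106 and 95, 379 and 458 at 2-fold, 490 and 574 at 5 FPKM, 205 and 206 with a common sum, and 155 and 164 against the wild type. The aberrant-marker library against the normal-marker library gave 456 and 369, 1051 and 928 at 2-fold, 1162 and 1003 at 5 FPKM, and 634 and 562 with a common sum. The controls gave 106 and 133, 432 and 470 at 2-fold, 484 and 714 at 5 FPKM, and 230 and 265 with a common sum. A common sum multiplies all values, so the floor is then reached by lower genes. The ratio of Casp1 to Casp4 was not run. No paired analysis was possible because sample numbers are not shared between groups and there is 1 library per group. Depth limits Nlrp3 and, in single libraries, Il1b and Il18 to few fragments.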
